A study of Homo sapiens with 8 samples.

Results

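The RNA levels of NRF2, of its inhibitor KEAP1 and of 8 antioxidant genes under NRF2 control were followed in A549 cells given rising doses of a plant extract or of a cardiac glycoside. The 10 genes (NFE2L2, which encodes NRF2, KEAP1, NQO1, GCLC, GCLM, TXNRD1, SLC7A11, SRXN1, HMOX1 and OSGIN1) were chosen by symbol. Of these, 9 were matched to 1 probe each, among 19056 genes named on the arrays. OSGIN1 was not matched to a probe and is not analysed here. A signal well above background on all 8 arrays came from 8 of the 9, as from 11493 of the 19046 genes tested, and the probe of NFE2L2 gave one on none.

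A549 is a human lung adenocarcinoma line that carries a mutant KEAP1 and has high basal NRF2 activity, so all groups share this state. One series of 4 one-colour arrays held cells given vehicle or 1.25, 5 or 20 µg/mL of EEDS, the ethanol extract of Descurainia sophia seeds, which had been dissolved in DMSO. The other series of 4 arrays held cells given vehicle or 3.75, 15 or 60 nM of helveticoside, a cardiac glycoside of that plant. A dose was read on a single array that carried the pooled RNA of 3 cultures, which leaves it without replicate error or p-value. The exposure is 24 h in the study's methods and 48 h in the sample labels.

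KEAP1 is the substrate adaptor of a CUL3 ubiquitin ligase that holds NRF2 at a low level. Electrophiles and oxidants modify cysteines of KEAP1, after which NRF2 escapes degradation, pairs with a small MAF protein and binds antioxidant response elements. Mutations of KEAP1 that keep NRF2 active are common in lung cancer. The targets supply glutathione, thioredoxin and reductases for quinones. NRF2 is governed largely as a protein, which arrays do not measure, and cardiac glycosides are known as inhibitors of the sodium pump.

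The core of the antioxidant response element, written here as TGACNNNGC, was looked for on both strands of RefSeq promoter windows of GRCh38.p14, each running from 250 bases before to 50 bases after an annotated gene start. It was present in 4687 of 35116 windows (13.3%). Windows were given for 8 of the 10 genes, 11 windows in all, and 4 of these held the core, in KEAP1, GCLM and TXNRD1. The windows of NFE2L2, NQO1, GCLC, SRXN1 and OSGIN1 held no such letters, nor did another window of KEAP1. Sequence outside the windows was not searched, so an element further away would be missed. The 6 matches follow, so that a reader can see where the core lies in these 3 genes, with 30 bases around each and the core in capitals, read 5′ to 3′ on the strand named.
GCLM, chr1:93909446-93909475, plus strand, 34 bases before the gene start: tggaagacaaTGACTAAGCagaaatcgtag
TXNRD1, chr12:104215670-104215699, plus strand, 99 bases before the first start: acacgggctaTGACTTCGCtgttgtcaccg
TXNRD1, chr12:104215760-104215789, minus strand, 8 bases before the same start: ctgtgggaacTGACGGAGCcgaaggacgcc
TXNRD1, chr12:104286919-104286948, minus strand, 102 bases before another start: agagtcagaaTGACAAAGCagaaatccact
KEAP1, chr19:10502806-10502835, minus strand, 54 bases before the gene start: acttttattgTGACACGGCgggcgcccggc
KEAP1, chr19:10502784-10502813, plus strand, 31 bases before the same start: caggtcaccaTGACTAAGCagagccgggcg
None of the 6 stretches held the AP-1 letters TGANTCA. These matches describe the letters of the reference genome and were not measured as sites of binding.

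The median scanned signal of the arrays ran from 182 to 278 and 54.5% to 64.9% of probes were well above background, with no saturated spot. Values are scanner intensities quantile-normalized over the 8 arrays, which sets every array to the same distribution, and a log2 ratio sets a treated array against the vehicle array of the same series. The scanner software put the error of most single spots at 10.0%, or 0.20 on a log2 ratio. The spread between the vehicle controls of the 2 series was wider, with an SD of 0.48 in log2 over genes well above background. The number of arrays limits the precision. All 5 epithelial markers (KRT8, KRT18, KRT19, EPCAM and CDH1) were well above background on every array, while of 9 markers of leukocytes, endothelium and fibroblasts only PTPRC, CDH5 and COL1A1 were. Within both series the place of the array on the scan changed step by step with the dose, so that place and dose cannot be told apart.

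Across the genes with signal, GCLC fell with dose under both agents and GCLM fell under EEDS, and no member rose past the threshold. At the top dose of EEDS, 7 of the 8 were below the vehicle control, with a median log2 ratio of -0.76, and 1, TXNRD1, was above it. At the top dose of helveticoside 6 were below, with a median of -0.60, and TXNRD1 and HMOX1 were above. The medians over all genes tested were 0.02 and -0.0039 at these doses, with 8624 and 9700 of 19046 genes below vehicle. Less RNA per cell and fewer cells with the RNA cannot be told apart in such cultures.

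**Figure D1:**
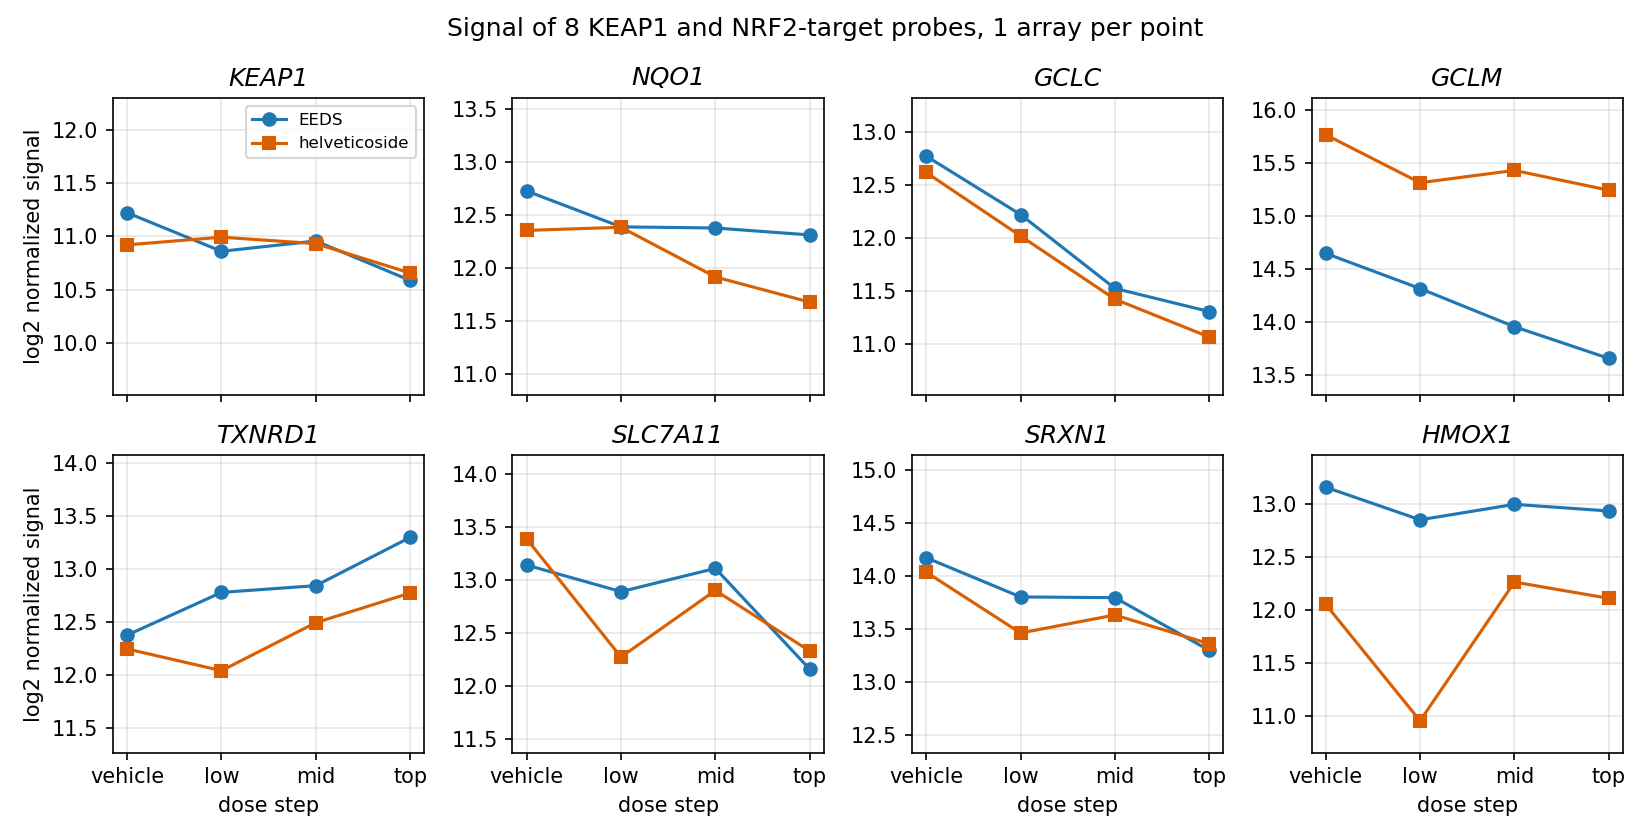
Log2 normalized signal (vertical axis, each panel spanning the same range) of the 8 genes with signal against the dose step (horizontal axis: vehicle, low, mid and top dose), 1 array per point, with circles for EEDS and squares for helveticoside. GCLC descends in both series, TXNRD1 ends above its vehicle control in both, and GCLM and HMOX1 start apart in the 2 vehicle controls.

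The lower doses also had medians below 0, closer to 0 than at the top doses. The median log2 ratio of the 8 genes was -0.33 at 1.25 µg/mL and -0.31 at 5 µg/mL of EEDS, and -0.51 at 3.75 nM and -0.37 at 15 nM of helveticoside. With scaling to the 75th percentile of each array in place of quantile normalization, the median over all genes moved to between -0.36 and 0.14, and that of genes well above background to between -0.04 and 0.08. Measured under that scaling against the median of genes well above background, the 8 genes had medians of -0.28, -0.18 and -0.53 over the EEDS doses and -0.38, -0.15 and -0.34 over the helveticoside doses, so the medians stayed below 0 and were closer to it, and that at 3.75 nM was then further from 0 than that at 60 nM. Of 48 single ratios 3 changed sign, SLC7A11 at 5 µg/mL and HMOX1 at 5 and 20 µg/mL of EEDS.

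Counted past 2-fold, the members are set beside the genes tested and, in brackets, beside those well above background on all arrays, as 8 members were. With EEDS no member was over 2-fold lower at 1.25 µg/mL, as were 3.66% of genes (2.24%). GCLC alone was lower at 5 µg/mL, beside 8.47% (7.49%), and at 20 µg/mL, beside 14.5% (16.2%). With helveticoside SLC7A11 and HMOX1 were over 2-fold lower at 3.75 nM, beside 4.31% of genes (1.13%). GCLC was lower at 15 nM, beside 8.06% (6.06%), and GCLC and SLC7A11 were at 60 nM, beside 12.8% (13.3%). Under quantile normalization none of the 9 was over 2-fold higher at any dose, beside 4.22%, 7.33% and 13.3% of genes (3.38%, 7.27% and 14.3%) over the EEDS doses and 3.38%, 7.08% and 10.8% (1.16%, 5.65% and 10.9%) over the helveticoside doses. Counts of 1 or 2 are near these shares at the middle and top doses and are read no further. With scaling to the 75th percentile SLC7A11 was at -0.97 and HMOX1 at -0.98 in log2 at 3.75 nM, short of 2-fold. The count at 3.75 nM thus depends on the scaling and is read no further either.

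**Figure D2:**
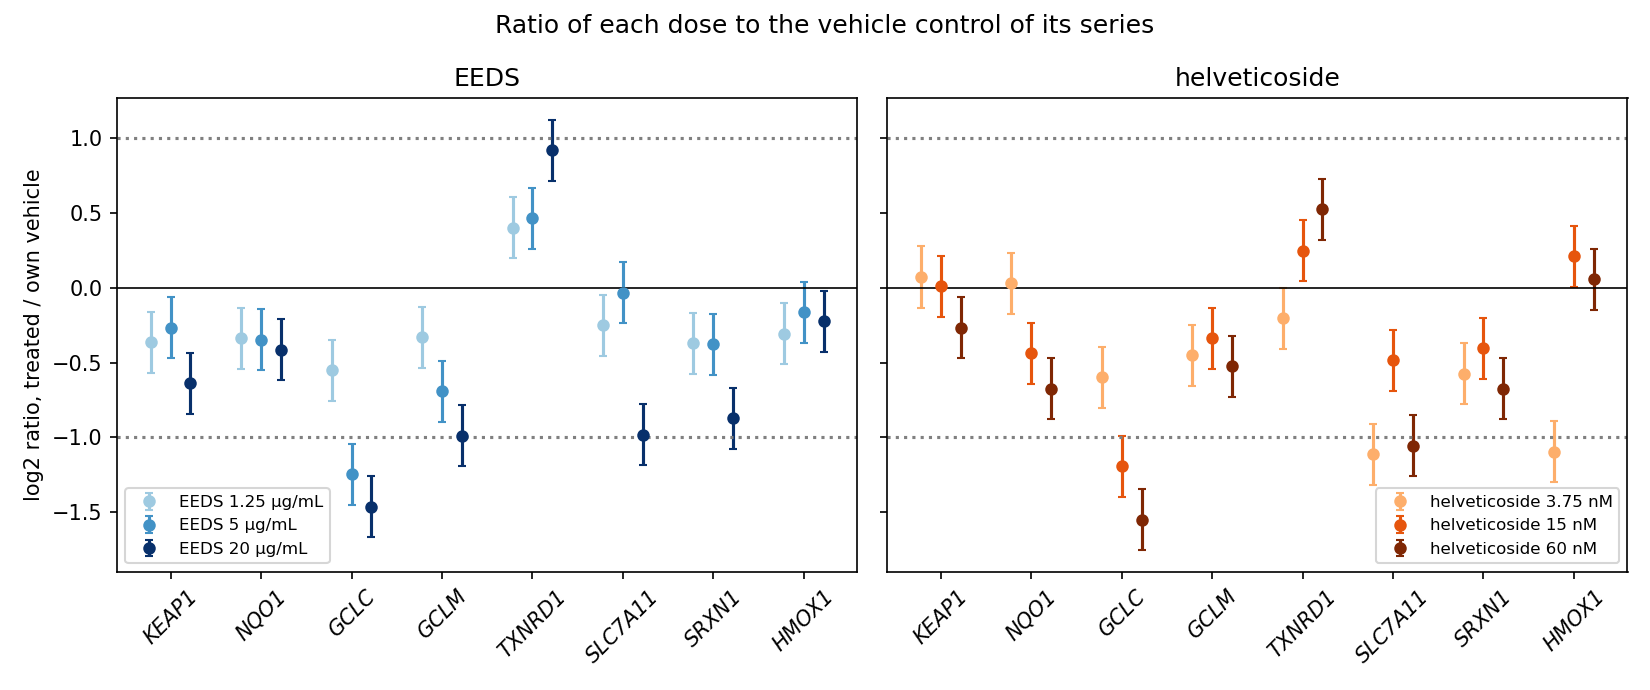
Log2 ratio of each treated array to the vehicle control of its series (vertical axis) for the 8 genes with signal (horizontal axis), darker points for higher doses and bars for the scanner software's error of about 0.20. Dotted lines mark 2-fold, which GCLC crosses downward at the mid and top doses of both agents and TXNRD1 does not reach upward.

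NRF2 itself could not be followed. The NFE2L2 probe gave a normalized signal between 7.48 and 7.66 on the 8 arrays and was not well above background on any, so no ratio is given for it. This says nothing of the level of the transcript or of the protein, since a probe may fail where its RNA is present.

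KEAP1, the repressor, was measured by 10 spots on each array. Its normalized signal was 2392 in the EEDS vehicle control, and 1859, 1988 and 1537 at 1.25, 5 and 20 µg/mL. In the helveticoside series it was 1939 with vehicle and 2039, 1954 and 1613 at 3.75, 15 and 60 nM. After normalization the EEDS control was the highest EEDS array, whereas before it the control was the lowest. With helveticoside the normalized values of the first 3 arrays lay close together with the top dose below them. The 10 spots spread by 0.05 to 0.08 in log2 (SD) on 7 arrays and by 0.38 at 15 nM, where the value is less sure. The log2 ratios at the top doses were -0.64 with EEDS and -0.27 with helveticoside. The slopes were -0.18 per dose step (SE 0.06, limma adjusted p = 0.118) and -0.09 (SE 0.06, adjusted p = 0.473), so neither passed the test.

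To ask whether a gene moved steadily with dose, a straight line over the dose steps was fitted for each agent with limma, and p-values were adjusted over all genes. The arrays about the lines stand in for replicates in this test. With EEDS 2 members fell (GCLC and GCLM) and none rose, beside 7.85% of all genes that fell and 7.27% that rose. With helveticoside 1 fell (GCLC) and none rose, beside 5.8% and 5.48% of all genes. Without adjustment 5 members had a p under 0.05 with EEDS, beside 33.4% of all genes, and 4 with helveticoside, beside 29.8%.

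GCLC encodes the catalytic subunit of glutamate-cysteine ligase, the rate-limiting enzyme of glutathione synthesis. Its normalized signal was 6995 with the EEDS vehicle and 4776, 2947 and 2534 over the rising doses. It was 6285 with the helveticoside vehicle and 4152, 2747 and 2145 over the doses. Each dose was below the one before it in both series, and all 6 treated arrays lay below both vehicle controls. The log2 ratios were -0.55, -1.25 and -1.47 with EEDS and -0.60, -1.19 and -1.55 with helveticoside, the last of each being 2.76-fold and 2.93-fold lower than vehicle. GCLC fell by 0.51 per dose step with EEDS (SE 0.06, limma adjusted p = 0.0144) and by 0.52 with helveticoside (SE 0.06, adjusted p = 0.0175). The slopes differed by -0.02 per step (SE 0.09, interval of 2 SE either way -0.19 to 0.16). With any single dose left out, or with each series fitted alone, the slopes stayed between -0.48 and -0.62 but no gene on the array passed the adjusted test.

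The log2 ratios nearest to those of GCLC over the 6 treated arrays, among 11077 other protein-coding genes with signal, were those of 3 genes, AFAP1L2 at a Euclidean distance of 0.24, RARS2 at 0.25 and DCTPP1 at 0.31. RARS2 encodes the mitochondrial arginyl-tRNA synthetase and DCTPP1 a pyrophosphatase of deoxycytidine triphosphate. Their top-dose log2 ratios were -1.44, -1.44 and -1.64 with EEDS and -1.35, -1.46 and -1.61 with helveticoside.

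GCLM encodes the modifier subunit of the same ligase. Its normalized signal was 25675, 20402, 15900 and 12927 from vehicle to 20 µg/mL of EEDS. With helveticoside it was 55713 with vehicle and 40725, 44138 and 38775 over the doses. The EEDS arrays descended in dose order, whereas the helveticoside vehicle stood above 3 treated arrays without an order among them, and all helveticoside arrays lay above all EEDS arrays. At the top doses the log2 ratios were -0.99 and -0.52. GCLM fell by 0.33 per dose step with EEDS (SE 0.05, limma adjusted p = 0.0205) and had a slope of -0.15 with helveticoside (SE 0.05, adjusted p = 0.140). The difference of the slopes was 0.19 (SE 0.08, interval of 2 SE either way 0.04 to 0.34), with an adjusted p of 1.0 in limma, so a difference between the agents was not shown. The fall of GCLM was smaller than the gap of 1.12 between the vehicle controls.

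**Figure D3:**
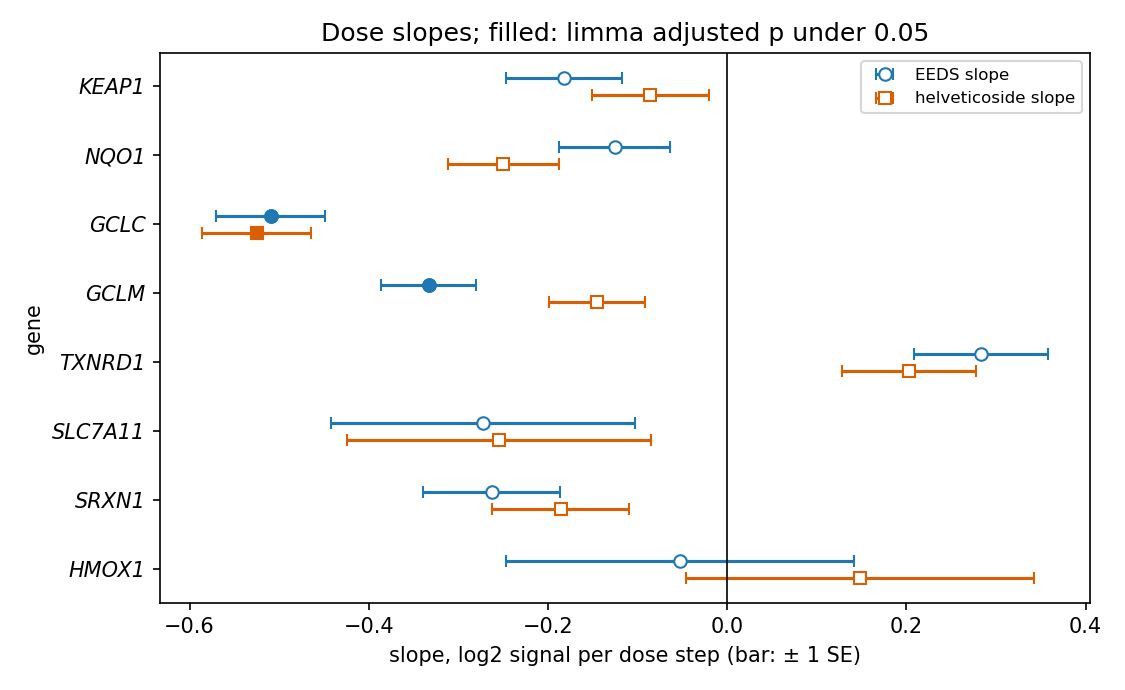
Slope of log2 signal per dose step (horizontal axis, bars 1 SE either way) of the 8 genes with signal, circles for EEDS and squares for helveticoside, filled where the limma adjusted p was under 0.05. The 3 filled points are GCLC under both agents and GCLM under EEDS.

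SLC7A11 encodes the transport subunit of the cystine and glutamate exchanger, which brings in the cystine used for glutathione. Over the EEDS arrays the normalized signal was 9044, 7602, 8846 and 4580, from vehicle to the top dose. It was 10731, 4958, 7663 and 5156 with helveticoside. The drop lay at the top dose with EEDS, and with helveticoside the lowest dose was the lowest array of all 4. The log2 ratios were -0.25, -0.03 and -0.98 with EEDS and -1.11, -0.49 and -1.06 with helveticoside. Neither slope passed the test, at -0.27 (SE 0.17, limma adjusted p = 0.335) and -0.25 (SE 0.17, adjusted p = 0.407), and the arrays scattered about the lines with an SD of 0.44.

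TXNRD1, the cytosolic thioredoxin reductase, which uses NADPH to keep thioredoxin reduced, was the one member above its vehicle at both top doses under both scalings and not past the threshold in either trend. The normalized signal was 5326, 7044, 7361 and 10091 over the EEDS arrays. It was 4869, 4225, 5781 and 7016 over the helveticoside arrays. All 3 EEDS doses lay above their control, and 2 of 3 helveticoside doses did. The top-dose log2 ratios were 0.92 and 0.53. The slopes were 0.28 (SE 0.07, limma adjusted p = 0.0601) and 0.20 (SE 0.07, adjusted p = 0.141), and the first passed the test where arrays were scaled to the 75th percentile, which also put the top EEDS dose past 2-fold higher at 1.14, or where genes well above background alone were tested.

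SRXN1, sulfiredoxin, which repairs overoxidized peroxiredoxins, was lower on every treated array. Its normalized signal was 18488, 14306, 14237 and 10091 with EEDS. It was 16825, 11303, 12713 and 10535 with helveticoside. Both vehicle controls stood above all 6 treated arrays, and the treated arrays of helveticoside followed no dose order. The top-dose log2 ratios were -0.87 and -0.68, and the slopes were -0.26 (SE 0.08, limma adjusted p = 0.0744) and -0.19 (SE 0.08, adjusted p = 0.177). The EEDS slope passed the test with other background settings, with the authors' processed values and among genes well above background.

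NQO1, which reduces quinones by 2 electrons at once and is the usual marker gene of NRF2 activity, had a normalized signal of 6776, 5361, 5321 and 5086 over the EEDS arrays. It was 5239, 5346, 3865 and 3279 over the helveticoside arrays. With EEDS the 3 doses lay together below the control, and with helveticoside the lowest dose matched the control within the scanner error while the other doses were below it. The top-dose log2 ratios were -0.41 and -0.68. The slopes were -0.13 (SE 0.06, limma adjusted p = 0.226) and -0.25 (SE 0.06, adjusted p = 0.0600), neither past the threshold, though the second passed it among genes well above background.

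HMOX1, heme oxygenase 1, which degrades heme and answers to many stresses besides NRF2, was read from 10 spots on each array. Its normalized signal was 9122, 7372, 8154 and 7810 over the EEDS arrays. It was 4243, 1983, 4908 and 4414 over the helveticoside arrays. The array at 3.75 nM stood alone at a log2 ratio of -1.10, although its 10 spots spread by only 0.06 (SD), and the other helveticoside doses were near their control at 0.21 and 0.06. The slopes were -0.05 (SE 0.19, limma adjusted p = 0.959) and 0.15 (SE 0.19, adjusted p = 0.736), with an SD of 0.50 about the lines. The ratio at 20 µg/mL of EEDS was -0.22 with quantile normalization and 0.04 with scaling to the 75th percentile.

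Several of these values lean on the normalization, as the processed signals before it show. Over the EEDS arrays HMOX1 then read 7719, 8667, 9633 and 12240 and NQO1 5740, 6350, 6150 and 8030, both highest at the top dose. SRXN1 read 15500, 16400, 16900 and 15600, and GCLM 21600, 22600, 18800 and 19600, nearly level, although their normalized values descend. KEAP1 read 2115, 2264, 2277 and 2265, lowest with vehicle, although its normalized value was highest there. SLC7A11 read 7640, 8910, 10500 and 7210, highest at 5 µg/mL. GCLC read 5910, 5660, 3410 and 3850 over the EEDS arrays and 4990, 2680, 2120 and 2070 over the helveticoside arrays, below vehicle on every treated array also before normalization. TXNRD1 read 4570, 8270, 8600 and 15600 over the EEDS arrays, above vehicle at each dose.

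The vehicle controls of the series, the one pair of arrays without an agent, differed for GCLM and HMOX1 by more than these genes moved at either top dose. GCLM was 2.17-fold higher in the helveticoside control, where 5.76% of genes (3.52% of those well above background) were over 2-fold higher. HMOX1 was 2.15-fold lower there, where 4.65% (1.22%) were over 2-fold lower. The other 6 genes with signal differed by log2 values from -0.37 (NQO1) to 0.25 (SLC7A11), less than the SD of 0.48. The labels do not say what else differed between the 2 series. Ratios of GCLM and HMOX1 against the other series' control are of another size or sign.

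For no member did the slope with helveticoside differ from that with EEDS at an adjusted p under 0.05 in limma, and none did without adjustment. Of all 19046 genes 0.0% had a higher and 0.0% a lower slope after adjustment, and 525 (2.76%) had an unadjusted p under 0.05. The differences ran from -0.12 per step for NQO1 to 0.20 for HMOX1, the latter with an interval of -0.35 to 0.75. The doses of an extract in µg/mL and of a pure compound in nM are not matched, and a p over the threshold does not show that the agents act alike.

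Around these genes, 58 others of the pathway were listed and 55 measured, 54 of them well above background on every array. With EEDS 4 of the 55 rose and 8 fell, and with helveticoside 6 rose and 8 fell, by the limma trend. The shares of all genes were 7.27% and 7.85% with EEDS and 5.48% and 5.8% with helveticoside. Pathway genes over 2-fold at the top doses numbered 4 higher and 15 lower with EEDS, and 4 higher and 14 lower with helveticoside. Of all genes 13.3% and 14.5% were with EEDS, and 10.8% and 12.8% with helveticoside. No test of the lists against the other genes was run. The median top-dose log2 ratios were -0.33 and -0.22. The 5 epithelial markers had top-dose log2 ratios from -2.70 (CDH1) to 0.05 (EPCAM) with EEDS and from -2.71 (CDH1) to -0.26 (EPCAM) with helveticoside, with KRT8, KRT18 and KRT19 between them, and the part of such a wider change in these counts was not tested.

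Among 11 genes listed under NRF2 control, which include DNA partners and relatives of NRF2, 3 rose with EEDS and 4 with helveticoside, and none fell. MAFF and MAFK encode small MAF proteins, the partners of NRF2 on DNA, and BACH1 a repressor that takes the same sites. MAFF had log2 ratios of 1.68, 2.86 and 5.30 with EEDS and 1.20, 2.57 and 4.44 with helveticoside (limma adjusted p of the slopes 0.0129 and 0.0165). MAFK reached 2.42 and 2.31 at the top doses (adjusted p 0.0181 and 0.0205) and BACH1 1.96 and 1.34 (adjusted p 0.0145 and 0.0287). The further riser with helveticoside was BTRC, a ubiquitin ligase adaptor for NRF2, at 0.98 (adjusted p = 0.0363), named here for its count. SQSTM1, which sequesters KEAP1, had top-dose ratios of 1.56 and 0.99 without passing the test (adjusted p 0.0601 and 0.147). MAFG, the remaining small MAF gene listed, had 0.99 and 0.77 and did not pass it either.

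Of the 6 lists, that of enzymes for quinones and carbonyls had the most falls. Of 12 measured, 4 fell with each agent and none rose, beside 7.85% and 5.8% of all genes that fell. All 12 were below vehicle at both top doses, with medians of -1.14 and -1.64. Of the 19046 genes tested, 8624 with EEDS and 9700 with helveticoside were below vehicle there. These falls were not checked against the signals before normalization. PIR, an iron-binding nuclear protein listed with them, had top-dose log2 ratios of -2.42 and -2.07 (limma adjusted p 0.0199 and 0.0283). CBR1, a carbonyl reductase, had -2.63 and -1.81 and passed the test with EEDS alone (adjusted p 0.0284 and 0.0697). AKR1C3, an aldo-keto reductase, fell with both agents (adjusted p 0.0270 and 0.0307), reaching -1.47 and -1.49. AKR1B1, another aldo-keto reductase, had -1.21 and -1.93 and passed the test with helveticoside alone (adjusted p 0.0832 and 0.0447). CBR3, the other carbonyl reductase, was not well above background at the top doses and was there at least 23.9-fold lower with EEDS and at least 13.9-fold lower with helveticoside (slopes with adjusted p 0.0137 and 0.0169). CBR3, AKR1C3 and AKR1B1 were named after their values were seen, and closely related AKR1C transcripts may share a probe.

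In glutathione use, 12 genes were measured, of which 1 rose and 2 fell with EEDS, and 2 rose and 2 fell with helveticoside. GPX2, a glutathione peroxidase of epithelia, was low at the top doses at -3.36 and -3.55 and fell in both trends (limma adjusted p 0.0346 and 0.0411). The other that fell was GSR, glutathione reductase, at -1.24 and -1.08 (adjusted p 0.0373 and 0.0454). The risers were GPX3, a secreted peroxidase, at 0.88 and 1.07 (adjusted p 0.0330 and 0.0276), and with helveticoside GSTP1, a glutathione transferase, at 0.35 (adjusted p = 0.0368). GSR, GPX3 and GSTP1 were named for these small counts.

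Of 6 genes that supply NADPH, all were below vehicle at both top doses, beside 8624 and 9700 of the 19046 genes tested. By the trend 1 of the 6 fell with each agent. That one was PGD, of the pentose phosphate pathway, at -1.89 and -2.21 (limma adjusted p 0.0249 and 0.0253). IDH1, cytosolic isocitrate dehydrogenase, had log2 ratios of -0.27, -1.07 and -3.42 over the EEDS doses and -0.15, -0.76 and -2.97 over those of helveticoside, a step at the top dose, and its slopes did not pass the test (adjusted p 0.0583 and 0.0952). None of 7 thioredoxin and peroxiredoxin genes passed the adjusted test, and their top-dose log2 ratios ran from -0.57 to 0.35 with EEDS and from -0.76 to 0.57 with helveticoside, lowest for TXN2 and highest for TXNRD2. Of 7 heme and iron genes 1 fell with each agent, FECH, which inserts iron into heme, at -1.37 and -1.10 (adjusted p 0.0205 and 0.0317). PGD and FECH were likewise named for their counts.

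**Figure D4:**
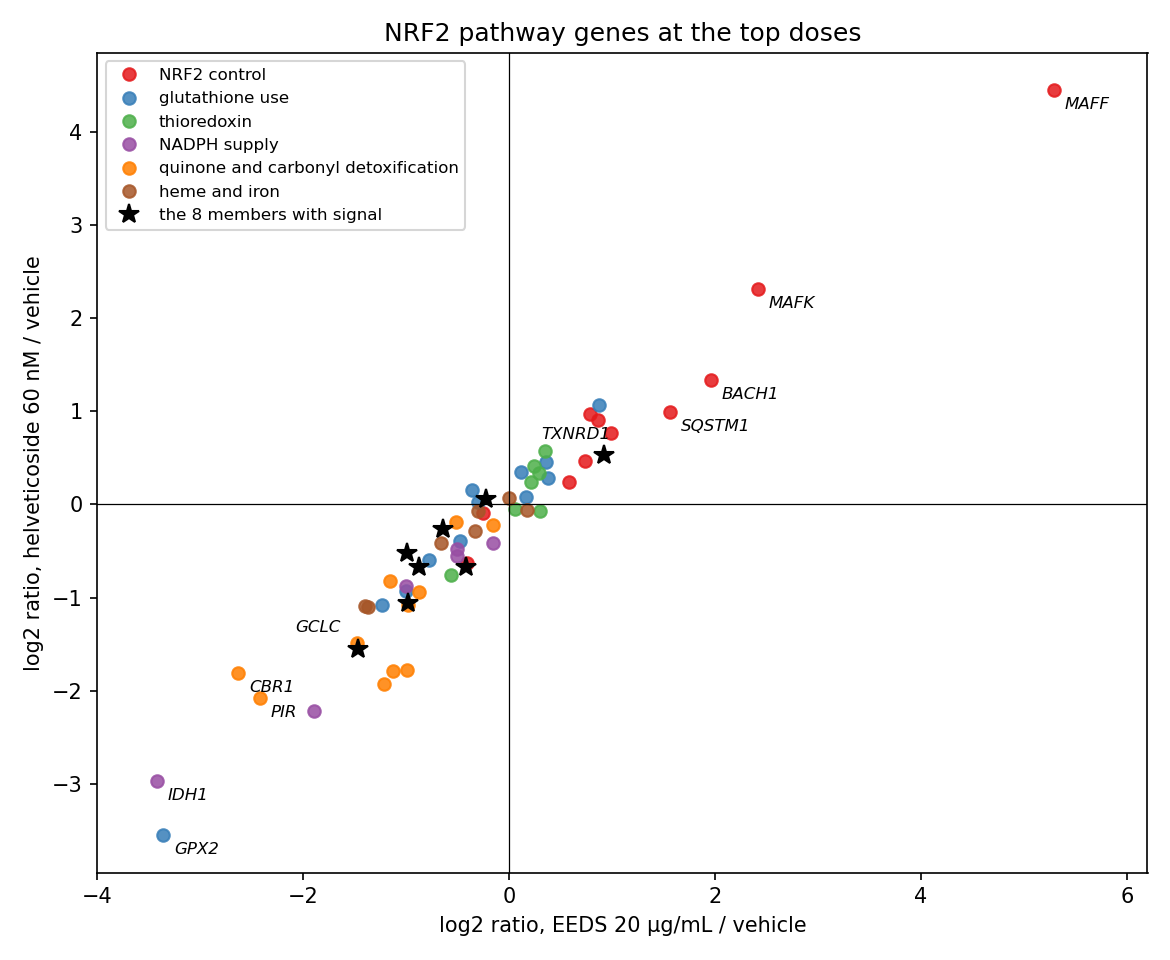
Log2 ratio to vehicle at the top dose of EEDS (horizontal axis) and of helveticoside (vertical axis) for 54 pathway genes with signal on every array, coloured by list, with stars for the 8 members. Points of both agents use different controls. MAFF lies highest at 5.30 and 4.44, GPX2 and IDH1 lie lowest, and the stars lie between -1.55 and 0.92.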

How the data were processed

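The authors deposited, for each of 8 one-colour Agilent arrays, the scanner software's intensity of every spot: a processed signal with background subtracted and its error, the median signal and the local background. Per the file headers these are green-channel columns, while the labels name Cy5. A deposited table of the authors' own intensity values, by rank median signal minus local background, quantile-normalized within each series, served as an alternative. Duplicate spots were averaged and arrays were quantile-normalized over all probes with a usable spot. Genes under 1.4 times local background on all arrays of a series were then left out. The limit and the quantile method were taken from the study's methods, where the limit came before normalization. A value under that limit on an array was raised to at least the lowest normalized signal of a probe above it there. Of 34127 probes, 24812 were matched to RefSeq genes (GRCh38.p14), and of 4797 genes with over 1 probe the brightest was used.

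Slopes per dose step were fitted with limma 3.58.1 (R 4.3.3, statmod 1.5.0, trend and robust estimation) on log2 values of all 8 arrays, an intercept and slope per series, with Benjamini-Hochberg adjustment over all genes and a threshold of 0.05. The fit was also run on simulated straight slopes with independent noise, which cannot speak to the error of the slopes on these arrays. Other steps used Python 3.11.15, numpy 2.4.6, pandas 2.3.3 and matplotlib 3.10.9. A bound replaces a ratio where an array was not well above background: the brighter value against the lowest signal well above background on the other array.

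The members and lists were chosen with earlier results of these data known. The genes named are all members, the other pathway genes that lay highest (4) and lowest (4) by mean top-dose ratio among genes well above background on all arrays, and the 3 genes nearest to a member past 2-fold at both top doses. AKR1B1, AKR1C3, BTRC, CBR3, FECH, GPX3, GSR, GSTP1, MAFG, PGD, TXN2 and TXNRD2 were named after their values were seen. Alternatives were other scaling, background, values, probes, filters, controls, folds, arrays and variance settings.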

Additional observations from a re-analysis of the deposited data

How the results depend on the processing

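Every alternative below used normalized or scaled signals, the signal as scanned included, which was quantile-normalized too. The nearly level GCLM signals before normalization under EEDS were thus not fitted. The fall of GCLC under both agents passed the limma test under 9 alternatives of scaling, background, values, probes, filter and variance, with adjusted p from 0.0032 to 0.0206, and GCLM passed it under EEDS in all of these. It was lost for both without the lowest, the middle or the top dose and with each series fitted alone (GCLC adjusted p from 0.0806 to 0.275), where the count was 0 for the members, for the other pathway genes and for all genes, with fewer arrays in the fit. Members with an unadjusted p under 0.05 then numbered 5, 4, 2 and 4 with EEDS (28.4%, 27.6%, 19.6% and 28.0% of all genes) and 4, 2, 1 and 2 with helveticoside (24.0%, 23.9%, 17.1% and 25.9%). Tested among genes well above background on all arrays, 4 members passed with EEDS (also TXNRD1 and SRXN1) in place of 2, and 2 with helveticoside (also NQO1) in place of 1, while the share of all genes called went from 15.1% to 31.3% and from 11.3% to 24.1%. Other pathway genes with an EEDS trend numbered 12, and 19 with normexp or with the signal as scanned, 20 with the authors' processed values and 21 among genes well above background, where the share of all genes went from 15.1% to 18.7%, 18.6%, 25.3% and 31.3%. With 75th percentile scaling 7 of these rose and 9 fell, against 4 and 8, and with normexp or the signal as scanned 4 rose and 15 fell. With helveticoside 6 rose and 8 fell, but 4 and 14 with normexp or the signal as scanned, 3 and 12 with the authors' values and 6 and 14 among genes well above background.

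Members past 2-fold at the top dose of EEDS numbered 1, the lower GCLC, but 2 with 75th percentile scaling (adding TXNRD1, higher) or the authors' values (adding SLC7A11, lower), 4 against the other series' control (TXNRD1 higher, 3 lower), 6 at 1.5-fold (TXNRD1 higher, 5 lower) and 0 at 3-fold. For helveticoside the count was 2 (GCLC and SLC7A11, lower), but 1 with 75th percentile scaling, 4 at 1.5-fold and 0 at 3-fold. Against the other series' control it was 3, with NQO1, GCLC and HMOX1 lower and SLC7A11 no longer past 2-fold. Of 480 member ratios under alternatives, 12 moved by more than 0.48, all of them GCLM or HMOX1 against the other series' control. GCLM there read -2.11 and 0.59 and HMOX1 0.88 and -1.05 at the top doses. Changing the filter could not move a ratio, nor could the mean of probes, as each member has 1 probe. The 480 hold such ratios and those of NFE2L2, so the count overstates how much was varied. No called value changed sign. No paired analysis was possible because each dose has 1 array and the labels carry no replicate numbers.

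With 1 pooled array per dose, 4 residual degrees of freedom and controls that differ by 0.48 (SD), changes of GCLM, HMOX1 and others of similar size are less sure than that of GCLC. Quantile normalization hides any change in total RNA.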
